A study of Mus musculus with 4 samples.

Results

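A set of 365 macrophage-like cells from the mouse joint at steady state was described, each carrying RNA for the chemokine Ccl8 or for the lectins Cd209b, Cd209d, Cd209f and Cd209g. The set was cut from the day 0 library of a single-cell RNA study by the summed UMIs of those 5 genes (unique molecular identifiers, each counting 1 captured RNA molecule). A cell was taken when the sum was 3 or more and it held at most 1 UMI of Sparc, a gene of the macrophages that line the joint surface. The rule took 365 of the 3715 cells retained at day 0, 9.83% (interval 8.89 to 10.8%), out of 14314 cells retained in all 4 libraries. They were compared with the 2219 cells of the same library in which the sum was 0, called sum-0 cells here, of which 1568 also held at most 1 Sparc UMI. The values that chose the cells were the counts of those 6 genes, so their levels are a description. Intervals are at 95% and reflect the counting of UMIs or cells alone, Clopper-Pearson for shares and exact Poisson for counts and ratios; they cover counting error only.

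The cells were CD45+CD11b+Ly6G- mononuclear cells sorted from the synovial tissue of hind paws, a gate for myeloid cells that leaves out neutrophils. All mice were of the Cx3cr1creER:tdTomato strain, in which Cre that needs tamoxifen is driven by Cx3cr1 and turns on the red fluorescent reporter tdTomato for good in the cells that express it at that time and in their progeny. The strain was pulsed with tamoxifen, and 4 weeks later K/BxN serum was injected, which carries autoantibodies that cause arthritis. Day 0 is the steady state, and the other libraries came 1, 2 and 5 days after serum. There was 1 library per day, with the number of mice in each and their age not given in the labels, so no comparison has a replicate and no test was made.

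Tissue macrophages of many organs include a resident population of the connective tissue, often near vessels, that makes monocyte-attracting chemokines and carries receptors for carbohydrates and for haemoglobin complexes. Ccl8 belongs with Ccl2, Ccl7 and Ccl12 to the monocyte chemoattractant proteins, small secreted proteins that draw monocytes and other leukocytes through receptors such as Ccr2. The Cd209 genes are the mouse relatives of DC-SIGN, C-type lectins on the cell surface that bind sugars on microbes and on the body's own glycoproteins.

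The selecting genes lie in 2 clusters of the mm10 genome, by GENCODE annotation. Ccl8 is in a cluster with Ccl2, Ccl7 and Ccl12, which the rule did not use. Ccl2 (chr11:82035571-82037453), Ccl7 (chr11:82045712-82047525), Ccl12 (chr11:82101845-82103400) and Ccl8 (chr11:82115185-82116799) stand on the plus strand of chromosome 11. Cd209d (chr8:3871824-3878555), Cd209b (chr8:3917655-3926844) and Cd209f (chr8:4102787-4105835) stand on the minus strand of chromosome 8, and Cd209g (chr8:4134098-4137707) on the plus strand. The upstream sequence of Ccl8 and of Ccl12 is shown because the RNA of both was high in the same cells, and that of Cd209f and Cd209g because these genes are close copies, which bears on how far their UMIs can be told apart. The sequences are from RefSeq (build GRCm38.p6), 5′ to 3′ on the gene's own strand, and end before the RefSeq start or any annotated UTR. The Cd209g stretch lies within the longer GENCODE gene. They lie at chr11:82114935-82115184 (Ccl8), chr11:82101595-82101844 (Ccl12), chr8:4105836-4106014 (Cd209f) and chr8:4134486-4134651 (Cd209g). Capitals mark the TATAAA box in the chemokine genes and the longest run of bases common to both Cd209 stretches.
Ccl8: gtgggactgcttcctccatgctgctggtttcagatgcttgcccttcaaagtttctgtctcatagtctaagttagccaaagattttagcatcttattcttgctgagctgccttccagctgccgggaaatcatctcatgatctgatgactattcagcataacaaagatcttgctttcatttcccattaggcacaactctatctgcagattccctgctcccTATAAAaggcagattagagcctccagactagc
Ccl12: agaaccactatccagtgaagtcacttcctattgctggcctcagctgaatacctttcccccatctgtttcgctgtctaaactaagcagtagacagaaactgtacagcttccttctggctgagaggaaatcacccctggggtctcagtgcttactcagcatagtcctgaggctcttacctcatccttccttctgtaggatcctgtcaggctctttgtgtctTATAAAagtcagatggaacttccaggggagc
Cd209f: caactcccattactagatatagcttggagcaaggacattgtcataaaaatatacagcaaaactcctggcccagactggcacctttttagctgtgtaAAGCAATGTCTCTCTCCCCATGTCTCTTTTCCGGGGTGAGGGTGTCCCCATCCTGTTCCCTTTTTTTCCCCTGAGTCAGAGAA
Cd209g: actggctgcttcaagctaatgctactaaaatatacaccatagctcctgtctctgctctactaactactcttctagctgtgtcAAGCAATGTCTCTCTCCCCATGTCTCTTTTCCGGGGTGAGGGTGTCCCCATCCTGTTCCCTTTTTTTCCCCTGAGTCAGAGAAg

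The stretches upstream of Cd209f and Cd209g shared an unbroken run of 83 bases, and 154 when the window was carried on to the RefSeq start site. The longest run common to the Ccl8 and Ccl12 windows of 250 bases was 8. The letters TATAAA were searched on both strands of the 250 bases upstream of the RefSeq start sites. They were present in those windows of Ccl8, Ccl12, Cd209f and Cd209g and not in those of Cd209b and Cd209d. In Cd209f and Cd209g they lay beyond the stretches shown, in the part of the window that follows the first annotated UTR base. Of 32817 such windows, 12.4% held them. TGANTCA, searched likewise, was in the Cd209f and Cd209g windows and in 6.75% of all. In the transcripts, 646 stretches of 50 bases were common to Cd209f and Cd209g, 29.8% of those of Cd209f and 16.6% of those of Cd209g. The division of UMIs between that pair is therefore uncertain. No stretch of 50 bases was shared among Ccl2, Ccl7, Ccl8, Ccl11 and Ccl12, or among Cd209a, Cd209b, Cd209c, Cd209d and Cd209e.

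The day 0 library was shallow. It held 7542 barcodes, of which 3760 had under 500 genes, and the median depth of its retained cells was 1057 UMIs. The later libraries reached 3607.5, 4183.5 and 3897 UMIs on days 1, 2 and 5. The members had a median of 1148 UMIs and 637 genes, and the sum-0 cells 1035 UMIs and 590 genes. Mitochondrial RNA took a median of 3.67% of UMIs in members and 2.92% in sum-0 cells. Of the day 0 barcodes, 53, 19 and 32 also occurred among those of days 1, 2 and 5, and 4, 3 and 4 of these were members.

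The cells were checked against macrophage identity genes, and UMIs of all 12 on the list were found in members, among them Csf1r, Adgre1, Cd68, C1qa, Fcgr1, Mertk, Lyz2, Itgam and Ptprc. C1qa, a subunit of complement C1q, had a UMI in 99.7% of members and 98.4% of sum-0 cells, and 94.2% and 91.6% with each cell thinned to 500 UMIs. Csf1r, the receptor for the macrophage growth factor, stood at 951 CPM in members and 902 CPM in sum-0 cells (CPM, summed UMIs scaled to a total of 1000000 per set), a ratio of 1.05 (interval 0.95 to 1.17). Of 11 genes of the list with at least 20 CPM in either set, 2 had a ratio above 1. Over all 5193 genes at that level, 2378 did. The list's median log2 ratio was -0.10, beside -0.04 over all those genes. Among markers of other cell types, those of monocytes gave 213 UMIs in members (449.0 CPM against 616.6 in sum-0 cells), with 12 members holding 3 or more and F10 at 0. Fibroblast markers gave 48 UMIs (101.2 CPM against 154.9), with 3 members holding 3 or more and Col1a1 and Col3a1 at 0. There were 6 UMIs of the neutrophil marker listed, 10 of 8 T or NK cell markers, 4 of 3 endothelial markers and none of the mast cell marker Cma1. Among the dendritic cell markers, Ccr7 and Fscn1 were at 0 and 58 UMIs in all were found (122 CPM against 76.1 in sum-0 cells). Of that level Cd209a, a relative of the selecting lectins, gave 80.1 CPM against 36.6. B cell markers gave 81 UMIs, 171 CPM against 99.2, of which 76 were Ighm, with no member holding 3 or more. Their part in the results was not tested.

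The selecting counts formed a continuum with no gap at the threshold. In cells with at most 1 Sparc UMI, 1568 had a sum of 0, 585 a sum of 1, 257 a sum of 2, 146 a sum of 3 and 86 a sum of 4, and 15 went over 10. Just outside the threshold, cells with a sum of 2 held 719.6 CPM of Ccl7 and 132.6 CPM of Ccl12, genes the rule did not use. Just inside it, cells with a sum of 3 held 818.3 and 250.03 CPM. A further 86 cells met the sum and were left out for holding 2 or more Sparc UMIs.

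**Figure D1:**
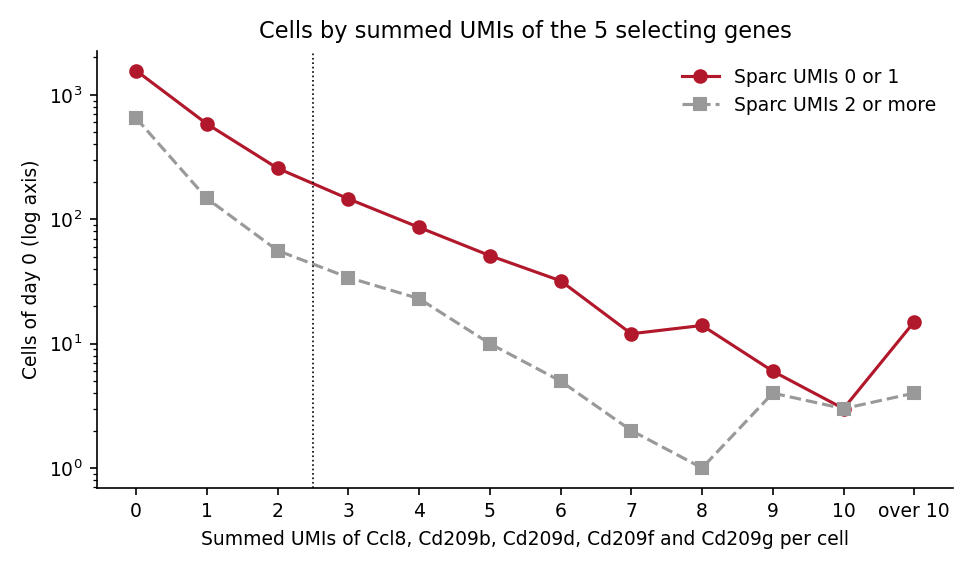
Number of day 0 cells (log axis) by the summed UMIs of Ccl8, Cd209b, Cd209d, Cd209f and Cd209g, for cells with 0 or 1 Sparc UMIs (circles) and with 2 or more (squares). The dotted line is the threshold, and the count falls from 257 to 146 cells across it without a gap.

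Ccl8 had UMIs in 329 members (90.1%), 1068 UMIs in all or 2251 CPM, with at most 26 in a cell. Cd209d had 285 UMIs in 51.8% of members, Cd209f 192 in 35.9%, Cd209g 120 in 24.9% and Cd209b, also called SIGNR1, 69 in 16.7%. Ccl8 and at least 1 of the 4 lectins were seen in 263 members, Ccl8 alone in 66 and the lectins alone in 36. Of the 4 lectin genes, 156 members held UMIs of 1, 115 of 2, 26 of 3 and 2 of all 4.

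Over all retained cells, which the threshold did not choose, a lectin UMI was found more often where Ccl8 was found. It was present in 17.9% of 2704 cells with no Ccl8 UMI (interval 16.5 to 19.4%), 34.2% of 562 with 1, 48.3% of 234 with 2 and 62.3% of 215 with 3 or more (55.5 to 68.8%). Median depth was 1043, 1044, 1140 and 1224 UMIs in those groups. Each lectin went with the others in the same way. Cd209b was found in 8.30% of cells with Cd209d and 2.99% of those without, Cd209d in 30.4% of cells with Cd209b and 13% of those without, and Cd209g in 16.0% of cells with Cd209f and 4.32% of those without, the last pair being the one whose UMIs may be split.

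RNA of the selecting genes was also read in other sets of day 0 barcodes. Ccl8 stood at 458 CPM in barcodes with under 500 genes (3659 barcodes, median 708 UMIs) and at 472 CPM over all retained cells. C1qa stood at 5614 CPM in the barcodes under 500 genes and at 5605 CPM in members. How many of those barcodes are shallow cells was not tested. Ccl8 stood at 260 CPM in 209 cells with 3 or more UMIs of osteoclast markers and at most 1 of Sparc. It stood at 194 CPM in 486 cells with 3 or more Sparc UMIs. The sum reached 3 in 13.2% of 2775 cells with at most 1 Sparc UMI, in 9.15% of 940 cells with 2 or more, in 4.31% of the 209 osteoclast-marker cells (interval 1.99 to 8.02%) and in 3 of 125 cells with proliferation markers. How many members passed the threshold through free RNA was not tested.

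Chemokines led the genes outside the rule. Of 10 CCL chemokines measured (at least 20 CPM in either set), Ccl2, Ccl7, Ccl12 and Ccl24 were at least 2-fold higher in members, where 2.0% of all 5193 genes were, and Ccl5 was at least 2-fold lower, where 2.62% were. The list's median log2 ratio was 0.40, beside -0.04 over all genes. Ccl12 stood at 303.6 CPM in members (144 UMIs) and 63.7 CPM in sum-0 cells, 4.76-fold higher (interval 3.78 to 6.0). Ccl7 stood at 1077 CPM and 318.7 CPM, 3.38-fold higher (3.02 to 3.78). Ccl2, the main ligand of Ccr2, stood at 1090 CPM and 474.0 CPM, 2.3-fold higher (2.07 to 2.55). The other monocyte chemoattractant proteins of the chromosome 11 cluster stood higher in the cells chosen by Ccl8 and the lectins. Ccl7 and Ccl12 had already been given as markers of these cells before the comparison, so their ratios are a description. Ccl24, which draws eosinophils, was at 556.5 CPM against 270.9 CPM, 2.05-fold higher (1.78 to 2.37). Against sum-0 cells with at most 1 Sparc UMI the ratios were 4.27, 3.15 and 2.15 for Ccl12, Ccl7 and Ccl2, and 1.85 for Ccl24, which then missed 2-fold. In that comparison 1.81% of 5206 genes were at least 2-fold higher and 2.79% at least 2-fold lower.

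The inflammatory chemokines Ccl3 and Ccl4 were near equal, with ratios of 1.09 (interval 0.942 to 1.27) and 1.21 (1.04 to 1.40). Ccl6 was 1.45-fold higher (1.31 to 1.60) and Ccl9 1.06-fold (0.953 to 1.18). Ccl17, which draws T cells through Ccr4, had a ratio of 0.846 (0.625 to 1.13). Ccl5 was low, with 5 UMIs in members and 94 in sum-0 cells, 3.55-fold lower (1.47 to 11.2).

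Cxcl13, which draws B cells through Cxcr5, had the highest ratio of the genes outside the rule that the naming rule took. It stood at 921.2 CPM in members (437 UMIs) and 188.0 CPM in sum-0 cells, 4.90-fold higher (interval 4.29 to 5.59). It was the 1 gene of 7 measured CXC and other chemokines past 2-fold, where 2.0% of all genes were at least 2-fold higher. Pf4, a chemokine abundant in resident macrophages, was 1.58-fold higher (1.53 to 1.63), while Cxcl16 was 1.43-fold lower (1.10 to 1.88) and Cxcl2, which draws neutrophils, had a ratio of 1.00 (0.901 to 1.12).

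Seen per cell, Cxcl13 had a UMI in 41.1% of members and 11.5% of sum-0 cells, and in 26.3% and 6.31% when each cell was thinned to 500 UMIs. In the osteoclast-marker cells, at a median of 1080 UMIs, the share was 8.13% (interval 4.81 to 12.7%). Ccl12 had a UMI in 22.2% of members, 4.42% of sum-0 cells and 1.44% of osteoclast-marker cells, and Ccl7 in 49.3%, 22.7% and 23.4%. The Ccl7 share of sum-0 cells was thus close to that of osteoclast-marker cells, while those of Ccl12 and Cxcl13 were above it, that of Cxcl13 within the counting interval. The part of free RNA in these shares was not tested.

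**Figure D2:**
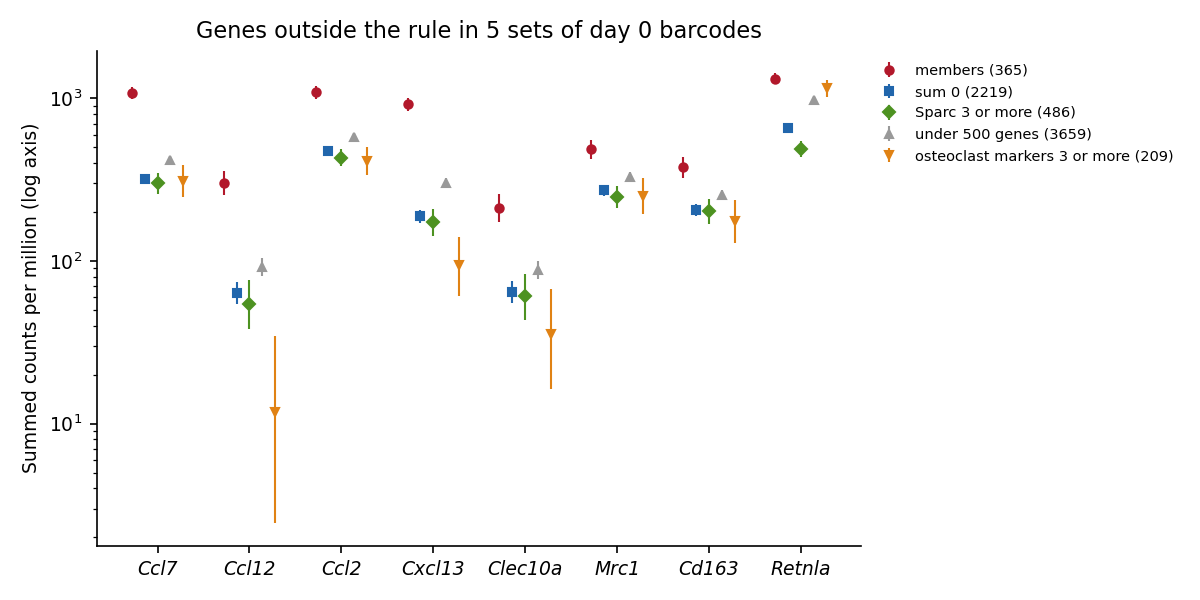
Level in CPM (log axis, bars 95% counting intervals) of 8 genes outside the rule in members, sum-0 cells, cells with 3 or more Sparc UMIs, barcodes under 500 genes, and cells with 3 or more osteoclast marker UMIs and at most 1 of Sparc. Ccl7 stands at 1077 in members and between 300.3 and 419.2 in the other sets, while Retnla is nearly as high in the osteoclast-marker cells (1156) as in members (1322).

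Some C-type lectins were higher in members and others lower. Of 12 other C-type lectins measured, Clec10a and Cd209a were at least 2-fold higher, where 2.0% of all genes were. Clec4e was at least 2-fold lower, where 2.62% were. The list median log2 ratio was 0.28. Clec10a, a receptor for galactose-type sugars, stood at 212.9 CPM in members and 64.9 CPM in sum-0 cells, 3.28-fold higher (interval 2.53 to 4.23). Cd209a, the family member known from dendritic cells, was at 80.1 CPM against 36.6 CPM, 2.19-fold higher (1.46 to 3.22). Mgl2, the close relative of Clec10a, and Mrc1, the mannose receptor, were 1.71-fold (1.40 to 2.08) and 1.79-fold (1.54 to 2.08) higher. On the other side, Clec4e, or Mincle, which senses mycobacterial glycolipid, was 2.13-fold lower (1.36 to 3.51) and its neighbour Clec4d 1.53-fold lower (1.03 to 2.36).

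Of 18 interstitial resident macrophage genes measured, 13 had a ratio above 1 (2378 of 5193 over all genes). Fcrls alone was at least 2-fold higher (2.0% over all genes), on 10 UMIs (2.12, interval 0.907 to 4.56). The list median was 0.29. Retnla, a secreted protein of alternatively activated macrophages, stood at 1322 CPM against 662.8 CPM, 1.99-fold higher (1.82 to 2.19). Cd163, which takes up haemoglobin bound to haptoglobin, was 1.84-fold higher (1.54 to 2.18), the endothelin receptor Ednrb 1.89-fold (1.25 to 2.78) and the growth factor Igf1 1.60-fold (1.29 to 1.96). Folr2, Lyve1 and Gas6, also known from resident macrophages, had ratios of 0.887 (0.791 to 0.992), 0.934 (0.850 to 1.02) and 0.990 (0.859 to 1.14). Higher RNA in members therefore held for part of that list.

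Some genes of iron handling were higher with Cd163. Hmox1, which breaks down haem, was 1.62-fold higher (interval 1.40 to 1.87) and transferrin, Trf, 1.70-fold higher (1.43 to 2.02), but the ferritin chains Fth1 and Ftl1 had ratios of 0.903 (0.877 to 0.929) and 1.03 (0.997 to 1.06). No gene of the 11 measured passed 2-fold. Complement C4b was 1.92-fold higher (1.39 to 2.63), while the C1q subunit genes C1qb and C1qc had ratios of 0.951 (0.909 to 0.993) and 0.931 (0.891 to 0.972).

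All 6 measured MHC class II genes, which present antigen to T cells, had ratios above 1 (2378 of 5193 over all genes) and none passed 2-fold, with a list median log2 ratio of 0.41. Cd74, the invariant chain, stood at 7258 CPM in members and 5429 CPM in sum-0 cells, a ratio of 1.34 (interval 1.29 to 1.39), and H2-Ab1 at 2458 and 1765 CPM, a ratio of 1.39 (1.30 to 1.49). Against sum-0 cells with at most 1 Sparc UMI the median was 0.25. Where the members were chosen by Ccl8 UMIs alone it was 0.07, and where they were chosen by the lectins alone 0.67, so this list depended on which selecting gene was used.

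Immediate early and stress genes, which respond within minutes to stimulation and also to tissue dissociation, were mostly slightly higher. Of 22 measured, 20 had a ratio above 1 (2378 of 5193 over all genes). Egr1 was at least 2-fold higher (2.0% over all genes), and the list median was 0.33. Egr1 stood at 295.1 CPM against 146.6 CPM, 2.01-fold higher (interval 1.65 to 2.45). Jund was 1.96-fold (1.58 to 2.41) and Fos 1.23-fold (1.13 to 1.34) higher. The part of dissociation in these values was not tested.

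Many lists stayed level. No gene passed 2-fold among the measured scavenger receptors (9 genes, median log2 ratio -0.10), complement genes (8, 0.00), Fc receptors (5, 0.06), MHC class I genes (12, -0.04), interferon-stimulated genes (8, 0.03), NF-kB feedback genes (12, 0.06), growth factors (8, -0.05), lipid genes (13, 0.00) and CSF receptors and ligands (3, 0.08). Efferocytosis genes, which serve the uptake of dying cells, stood apart from these lists, with a median of -0.60. Of 9 measured, 2 were above 1 (2378 of 5193 over all genes) and none passed 2-fold. Against sum-0 cells with at most 1 Sparc UMI their median was -0.38.

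Among transcription factors, Irf4, which acts in alternatively activated macrophages and dendritic cells, was 3.10-fold higher on 17 UMIs (interval 1.60 to 5.84). It was the single gene of 21 measured past 2-fold, where 2.0% of all genes were at least 2-fold higher. Maf, a factor of resident macrophages, was 1.52-fold higher (1.29 to 1.78). Bhlhe40 was 1.68-fold lower (1.18 to 2.48). Of the 104 genes at least 2-fold higher, the naming rule also took the Golgi mannosidase Man1c1 (2.79, interval 1.73 to 4.41), Tnfrsf17, the receptor BCMA known from plasma cells (2.82, 1.66 to 4.67), the cytokine Tslp (2.27, 1.54 to 3.29), Fam46a (2.22, 1.51 to 3.22), the signalling kinase Irak1 (2.09, 1.40 to 3.08) and the RNA-binding Khsrp (2.06, 1.31 to 3.18). Each of these 6 rested on 25 to 42 UMIs in members. Khsrp turned to a log2 ratio of -0.22 when cells were thinned to 800 UMIs before they were chosen.

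**Figure D3:**
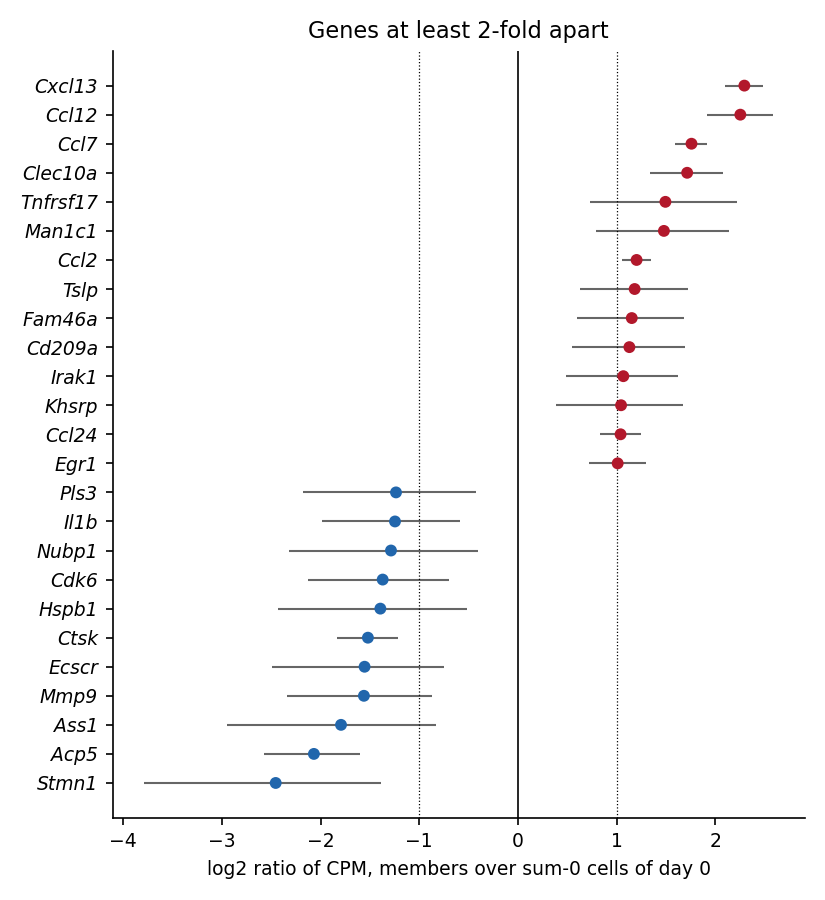
log2 ratio of CPM, members over sum-0 cells of day 0, for genes higher and lower that the naming rule took, with 95% counting intervals and dotted lines at 2-fold. Chemokines and Clec10a stand at the top, and the osteoclast genes Acp5, Ctsk and Mmp9 and the cycling gene Stmn1 at the bottom.

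The genes lower in members were led by those of osteoclasts, the cells that resorb bone, and of dividing cells. Of 5 osteoclast markers measured, 4 were at least 2-fold lower, where 2.62% of all 5193 genes were. The list median log2 ratio was -1.56. Acp5, the tartrate-resistant acid phosphatase, stood at 82.2 CPM in members and 344.6 CPM in sum-0 cells, 4.19-fold lower (interval 3.04 to 5.93). Ctsk, the collagen-degrading cathepsin, stood at 200.3 and 574.4 CPM, 2.87-fold lower (2.33 to 3.57), and Mmp9, a gelatinase, at 37.9 and 112 CPM, 2.95-fold lower (1.83 to 5.05). Atp6v0d2, a proton pump subunit, was 3.73-fold lower on 4 UMIs (1.40 to 14). Of the members, 2.47% held 3 or more osteoclast marker UMIs, against 7.21% of sum-0 cells, so the comparison set holds more such cells. The sum-0 cells were not cleared of them, and their part in these ratios was not tested.

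Of 4 proliferation markers measured, 3 were at least 2-fold lower, where 2.62% of all genes were. Stmn1, which controls microtubules, had 7 UMIs in members and 203 in sum-0 cells, 5.48-fold lower (interval 2.61 to 13.8). Ube2c and Birc5, genes of mitosis, had 1 UMI each in members and 86 and 85 in sum-0 cells, ratios of 0.0615 (0.00154 to 0.352) and 0.0623 (0.00156 to 0.356). Hmgb2 did not differ beyond counting error (0.947, 0.689 to 1.28). Cells with 3 or more UMIs of the 12 proliferation markers made up 0.548% of members and 4.69% of sum-0 cells. With cells thinned to 800 UMIs before the rule, 1 of the markers was past 2-fold and the list median was -0.90 in place of -3.23.

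Of 6 measured marker genes of the joint-lining macrophages, 1 had a ratio above 1 (2378 of 5193 over all genes) and none passed 2-fold. The median log2 ratio was -0.38. Vsig4, a complement receptor, stood at 826.4 CPM in members and 1635 CPM in sum-0 cells, 1.98-fold lower (interval 1.78 to 2.20), Olfml3 was 1.73-fold lower (1.26 to 2.42) and Trem2, a lipid receptor, 1.33-fold lower (1.19 to 1.47). The rule itself removed Sparc-positive cells from the members. Against sum-0 cells under the same Sparc limit, the ratio of Vsig4 was 0.651, that of Olfml3 0.723 and that of Trem2 0.831. In that comparison 2 of the 6 markers were above 1 (2402 of 5206 over all genes) and the median was -0.30. Aqp1, the water channel that marks another synovial macrophage population, was 1.26-fold lower (1.12 to 1.42) and the tetraspanin Cd9 1.54-fold lower (1.40 to 1.69).

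Lysosomal genes stayed near level, with a list median of -0.10. Npc1 was the 1 gene of 20 past 2-fold (2.83-fold lower on 8 UMIs, interval 1.39 to 6.72), where 2.62% of all genes were at least 2-fold lower. Ctsd, the aspartic protease cathepsin D, stood apart from the list's median, at 1119 CPM against 2126 CPM, 1.90-fold lower (1.74 to 2.08). Among extracellular proteases, Mmp9 and Mmp14 were at least 2-fold lower, Mmp14 on 6 UMIs. Plau, the urokinase that activates plasminogen, was 1.97-fold higher (1.19 to 3.17). Of 8 inflammatory cytokines and mediators measured, 3 had a ratio above 1 (2378 of 5193 over all genes), with a median log2 ratio of -0.20. In that list 1 gene was at least 2-fold higher (2.0% over all genes) and 1, Il1b, at least 2-fold lower (2.62%). Il1b, the inflammatory cytokine, stood at 42.2 CPM against 99.98 CPM, 2.37-fold lower (1.5 to 3.95), while Tnf was 1.33-fold lower (1.02 to 1.76). Other genes named by the rule were Ass1, which makes arginine (3.46-fold lower, 1.78 to 7.71), Ecscr (2.94-fold), Cdk6, a cell cycle kinase (2.59-fold), the small heat shock protein gene Hspb1 (2.63-fold), Nubp1 (2.44-fold) and Pls3, an actin-bundling plastin (2.35-fold).

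The tdTomato reporter, whose own counts the rule did not use, was lower in members than in all sum-0 cells. The rule's Sparc limit held for the members and not for all sum-0 cells. Its RNA stood at 664.0 CPM in members and 970.7 CPM in sum-0 cells, a ratio of 0.684 (interval 0.606 to 0.770), and 0.817 against sum-0 cells with at most 1 Sparc UMI. With each cell thinned to 500 UMIs, 27.4% of members held a UMI of it (22.9 to 32.3%), against 35.5% of sum-0 cells (33.5 to 37.5%). Of sum-0 cells with at most 1 Sparc UMI, 30.7% did (28.5 to 33.1%), an interval that overlapped that of members. Unthinned the shares were 50.4%, 58.0% and 51.7%. Cx3cr1, whose promoter drives the Cre, had 21 UMIs in members, a ratio of 0.896 (0.536 to 1.43). No cell type that lacks the transgene is in these libraries, so the share that free reporter RNA gives is not known. Its level was 837 CPM in barcodes under 500 genes and 1389 CPM in cells with 3 or more Sparc UMIs.

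The members were not uniform. Those with lectin UMIs and no Ccl8 (36 cells) held more MHC class II RNA, and less RNA of Cxcl13, Ccl7 and Ccl4, than those with Ccl8 and no lectin UMI (66 cells). Cd74 stood at 9606 CPM in the former and 5147 CPM in the latter, 1.87-fold higher (interval 1.63 to 2.14), H2-Ab1 at 2980 and 1509 CPM, 1.97-fold higher (1.54 to 2.54), and H2-Aa at 3091 and 1655 CPM, 1.87-fold higher (1.46 to 2.38). The 263 cells with both lay between, with Cd74 at 7454, H2-Ab1 at 2615 and H2-Aa at 2460 CPM.

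Cxcl13 ran the other way, at 466.9 CPM with lectins only, 915.9 with both and 1192 with Ccl8 only, a ratio of lectin-only to Ccl8-only of 0.392 (interval 0.232 to 0.632). Ccl7 stood at 689.3, 1069 and 1326 CPM (0.520, 0.337 to 0.781), and Ccl4 at 222.4, 446.4 and 657.0 CPM (0.338, 0.154 to 0.671). Ccl17 had 22 UMIs in the 36 lectin-only cells, 32 in the 263 with both and 1 in the 66 Ccl8-only cells, a ratio of 40.2 with a wide interval (6.5 to 1659). Mgl2 was 2.19-fold higher in lectin-only cells (1.04 to 4.67). Cd163, Mrc1, Retnla, Folr2 and Lyve1 did not differ beyond counting error between these subsets, with ratios of 0.914 to 1.37. The subsets are defined by the selecting genes and have similar depth, with medians of 1120 UMIs with lectins only, 1179 with both and 1132.5 with Ccl8 only.

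**Figure D4:**
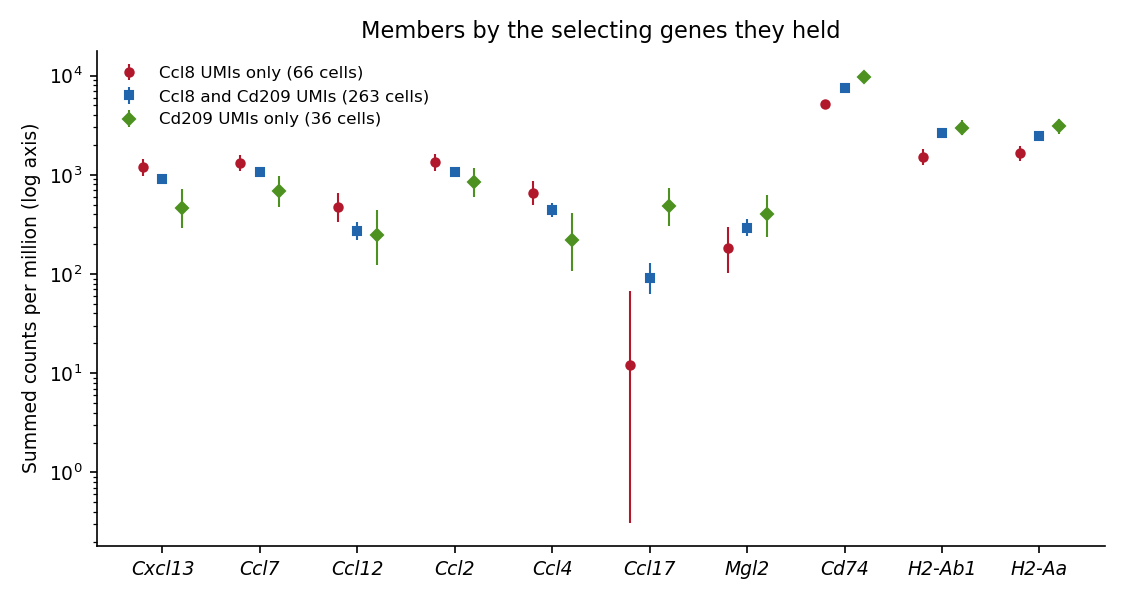
Level in CPM (log axis, bars 95% counting intervals) of 10 genes outside the rule in members with Ccl8 UMIs only, with Ccl8 and lectin UMIs, and with lectin UMIs only. Cxcl13, Ccl7 and Ccl4 step down and Cd74, H2-Ab1 and Ccl17 step up from the Ccl8-only to the lectin-only cells.

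Members with the most selecting UMIs held the most of the other chemokines. Between the 232 cells with a sum of 3 or 4 and the 18 with 10 or more, Cxcl13 went from 691.0 to 1638 CPM (2.37-fold, interval 1.69 to 3.27), Ccl12 from 258.7 to 580.1 CPM (2.24-fold, 1.24 to 3.84) and Ccl7 from 900.1 to 1536 CPM (1.71-fold, 1.21 to 2.35). Cbr2, a carbonyl reductase of resident macrophages, went from 457.1 to 1092 CPM (2.39-fold, 1.57 to 3.54). The reporter TdTomato went from 737.0 to 273.0 CPM (0.370, 0.158 to 0.743), Aqp1 from 747.7 to 238.9 CPM (0.320, 0.127 to 0.670) and Ctsk from 276.4 CPM to 34.1 CPM, the latter on 1 UMI (0.123, 0.00309 to 0.708). Median depth was 1107 UMIs in the 232 cells and 1361 in the 18.

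The same rule was then applied to the 3 libraries after serum, which had no part in choosing the day 0 cells. It took 637 of 4642 cells at day 1, 243 of 2722 at day 2 and 232 of 3235 at day 5. With each cell thinned to 800 UMIs, which left out 73 day 0 cells, it took 6.51% at day 0 (interval 5.73 to 7.36%), 6.27% at day 1 (5.59 to 7.0%), 4.22% at day 2 (3.5 to 5.05%) and 2.38% at day 5 (1.88 to 2.97%). The unthinned shares were 9.83%, 13.7%, 8.93% and 7.17%. Thinned to 500 UMIs they were 2.85%, 3.92%, 2.57% and 1.58%. The share at day 5 was the lowest in each case, but the order of days 0 and 1 depended on the thinning. Day and library cannot be told apart.

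Most genes that set the day 0 members apart did so in the other libraries too. Of the 14 higher genes, 10, 11 and 8 were at least 2-fold higher on days 1, 2 and 5, where 2.44%, 3.17% and 2.55% of all measured genes were. Of the 12 lower genes, 9, 8 and 8 were at least 2-fold lower, where 3.23%, 3.35% and 2.83% were. Cxcl13 stood at 317.3, 239.4 and 192.1 CPM in the rule-positive cells of days 1, 2 and 5 and at 50.8, 68.7 and 7.84 CPM in the sum-0 cells, ratios of 6.24, 3.48 and 24.5. Ccl12 had ratios of 11.8, 8.29 and 9.25, Ccl7 4.66, 4.80 and 2.41, and Clec10a 9.08, 11.3 and 7.42. Ccl2 was 2.23-fold and 3.30-fold higher at days 1 and 2 and level at day 5 (1.00, interval 0.881 to 1.13).

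Genes that stood apart on every later day were then read at day 0. They were chosen for a 2-fold ratio on days 1, 2 and 5 and under no condition at day 0, so a smaller ratio at day 0 is in part built into the choice. Of 35 genes at least 2-fold higher on each of days 1, 2 and 5, 32 were listed at day 0, where 30 had a ratio above 1 and 8 passed 2-fold, with a median log2 ratio of 0.70 beside -0.04 over all genes. Of 34 genes at least 2-fold lower on those days, all 34 were below 1 at day 0 and 6 passed 2-fold, with a median of -0.58. Cd209a had a ratio of 2.19 at day 0 and 17.2, 31.7 and 10.1 later, Mgl2 1.71 and then 8.12, 8.09 and 10.3, and Cd74 1.34 and then 4.64, 5.08 and 2.74. S100b, a calcium-binding protein gene, was 2.17-fold lower at day 0 and 45.2-fold, 85.9-fold and 13.6-fold lower later, and Vsig4 1.98-fold and then 10.7-fold, 7.85-fold and 8.21-fold. TdTomato had ratios of 0.195 (interval 0.173 to 0.219), 0.171 (0.144 to 0.203) and 0.312 (0.261 to 0.371) on days 1, 2 and 5. The sum-0 cells of these ratios were not held to the Sparc limit. Thinned to 500 UMIs, 5.02%, 5.76% and 4.31% of rule-positive cells held TdTomato on those days. Of sum-0 cells 23.4%, 29.7% and 15.8% did, and of those under the Sparc limit 12.5%, 18.1% and 6.33%. Vsig4 was in 5.65%, 10.7% and 7.33% of rule-positive cells, and 13.9%, 14.7% and 4.81% of Sparc-limited sum-0 cells. At day 5 Vsig4 was thus not lower in that comparison. Sum-0 cells of day 0 held fewer UMIs each, and the part of depth and free RNA in the day 0 ratios was not tested.

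**Figure D5:**
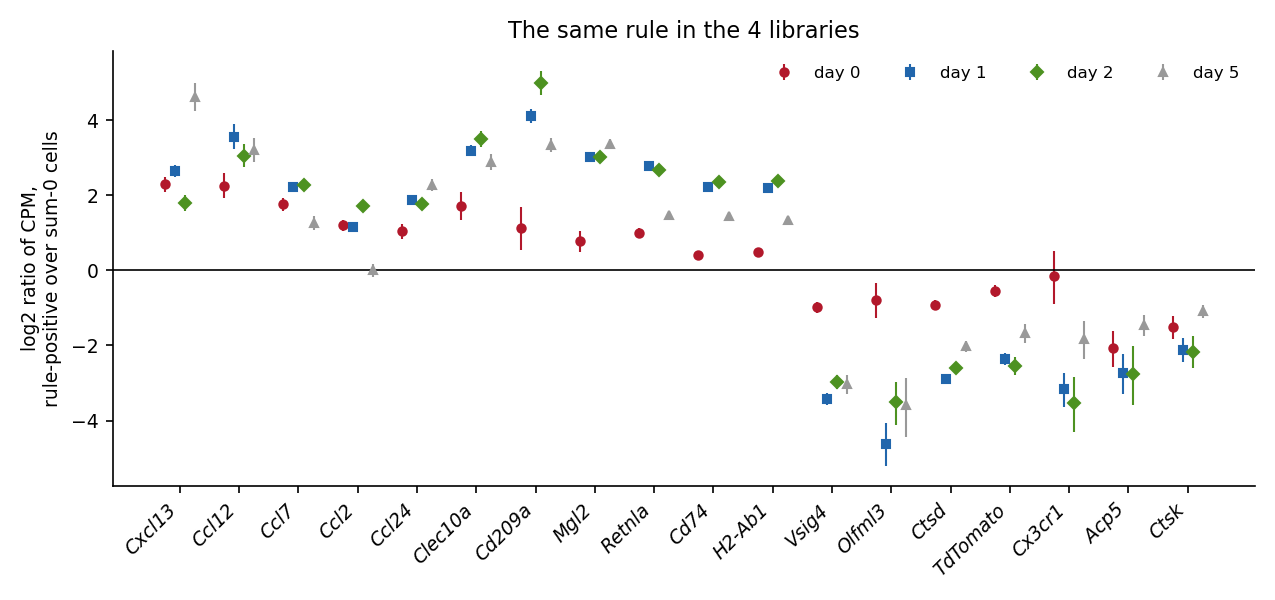
log2 ratio of CPM, rule-positive over sum-0 cells of the same library, for 18 genes on days 0, 1, 2 and 5, with 95% counting intervals. The sum-0 cells were not held to the Sparc limit. Day 0 (circles) lies nearest to 0 for Ccl12, Ccl24, Clec10a, Cd209a, Mgl2, Retnla, Cd74, H2-Ab1, Vsig4, Olfml3, Ctsd, TdTomato and Cx3cr1. For Cxcl13, Ccl7, Ccl2, Acp5 and Ctsk a later day lies nearer to 0. The day 0 values of Cxcl13, Ccl12 and Ccl7 are apart from 0.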

How the data were processed

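Cells were profiled with a Chromium 3′ kit, per the labels' protocols. The authors deposited 1 table of raw UMI counts for each library, with genes in lines and cell barcodes in columns. Per the submitters' processing notes, the tools included Seurat 2.3, Cell Ranger 2.1.0 and R 3.5.2, and the build was mm10. The order and role of these tools were not stated there. A gene is listed for a library if 5 or more barcodes hold it.

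Cells were retained if they had 500 or more genes and mitochondrial RNA below 10% of UMIs. No doublet caller was run, and the 5% of cells with most UMIs were left out as an alternative. The members, gene lists and comparisons were chosen with earlier results of these data known. UMIs were summed over the cells of a set and given as CPM, with ratios by an exact conditional Poisson interval. A count of 0 was set to 3 counts and given as a bound. Genes with at least 20 CPM in either set counted as measured. Named genes had at least 50 CPM in either set and a 2-fold ratio, ranked with 5 CPM added, up to 15 higher and 12 lower, leaving out predicted, sex-linked, haemoglobin, ribosomal protein and mitochondrial genes. Some genes are not reported here. Up to 4 genes of each list were named by size of ratio, with further list members for context. Shares were recomputed after thinning cells to 500 or 800 UMIs. Total UMIs per library were 7115082, 18426363, 12218230 and 14995823 at days 0, 1, 2 and 5. Ratios were checked on simulated data. The alternatives were other gene, mitochondrial and sum limits, thinning before the rule, Sparc-matched sum-0 cells, median-ratio scaling, an unweighted mean over the cells' CPM, dropping the filter on low values, and members chosen by Ccl8 or by the lectins alone. Software was pandas 2.3.3, SciPy 1.17.1, matplotlib 3.10.9 and NumPy 2.4.6 under Python 3.11.15.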

Additional observations from a re-analysis of the deposited data

Results flagged for a closer look

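Some genes stood on opposite sides of 1 at day 0 and on a later day, by at least 1.5-fold each way and with counting intervals clear of 1. The difference between days was not tested, since each day has 1 library. Il1b had a ratio of rule-positive over sum-0 cells of 0.422 at day 0 (interval 0.253 to 0.665), 1.62 at day 1 (1.35 to 1.93) and 2.02 at day 2 (1.69 to 2.41). Its level in the rule-positive cells was 42.2, 73.1 and 163.8 CPM on those days. At day 5 the Il1b ratio was again below 1, at 0.379 (0.345 to 0.416).

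Proliferation genes also changed sides, at day 2 and, for Birc5, at day 5 as well. Stmn1 had a ratio of 0.182 at day 0 and 1.99 at day 2 (interval 1.66 to 2.39). Ube2c had a ratio of 0.0615 at day 0, on 1 UMI in members, and 5.72 at day 2 (3.48 to 9.26). Birc5 had a ratio of 0.0623 at day 0, also on 1 UMI, 2.91 at day 2 (1.84 to 4.49) and 1.63 at day 5 (1.23 to 2.13).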

How the results depend on the processing

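No paired analysis was possible because there is 1 library per day and the labels carry no replicate numbers. The share of members was 13.6% with at least 700 genes per cell, 8.74% under 5% mitochondrial UMIs, 3.58% with sums of at least 5 and 6.51% with cells thinned to 800 UMIs first. In that order, genes at least 2-fold higher numbered 371, 154, 372 and 337 (104 as reported) and genes at least 2-fold lower 434, 221, 426 and 389 (136 as reported). Members chosen by 3 or more Ccl8 UMIs gave 265 higher and 341 lower, those chosen by 2 or more lectin UMIs 218 lower, and no filter on low values 814 and 703. Fewer member cells entered most of these, and the part of cell number in the counts was not tested.

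The CCL chemokine median was 0.61 with at least 700 genes and 0.59 for Ccl8 alone, and the CXC median turned to -0.28 for Ccl8 alone. The MHC class II median was 0.51 under 5% mitochondrial UMIs, 0.14 with sums of at least 5, 0.19 thinned to 800, 0.25 with Sparc-matched sum-0 cells, 0.071 for Ccl8 alone and 0.67 for the lectins alone. Sums of at least 5 gave medians of 0.45 for interstitial genes, -0.55 for Aqp1 macrophage, -1.10 for monocyte and -2.70 for osteoclast markers. The proliferation median was -1.26 with at least 700 genes and -0.90 thinned to 800. By the lectins alone, 2 osteoclast markers and 1 protease gene were past 2-fold lower. Thinned to 800, 1 proliferation marker was past it, and with no filter 10 proliferation markers and 5 protease genes were.

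Khsrp reversed to -0.22 with cells thinned to 800, Ccl4 to -0.14 for the lectins alone and C1qb to 0.0056 with sums of at least 5. Over the 134 named gene results, 1213 values under the alternatives stayed within the reported interval, 118 left it and 3 reversed. Median-ratio scaling moved the median gene by 0.01 on the log2 scale. The share of cells with TdTomato was 39.8% in members and 49.3% in sum-0 cells thinned to 800, and 50.4% and 58.0% unthinned. Shares taken by the rule on days 0, 1, 2 and 5 were 2.85%, 3.92%, 2.57% and 1.58% thinned to 500 and 9.83%, 13.7%, 8.93% and 7.17% unthinned.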
